A study of Mus musculus with 15 samples.

Results

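The late step of the folic acid course was described by setting the 3 arrays of day 14 against the 3 arrays of day 7, 6 of the 15 arrays in the series. Both groups were fibroblasts of adult C57BL/6 mouse kidney that had been sorted for surface PDGFRa after acute kidney injury by folic acid, 14 days after injury in the first group and 7 days after it in the second. The other 9 arrays were 3 each of folic acid day 3, unilateral ureteral obstruction at day 14 and uninjured kidney. The arrays were chosen by their titles alone, and nothing in the labels says whether the 3 arrays of a day came from separate animals, from pooled animals or from animals of which sex. A p-value here reflects no more than the spread within groups, pooled over all 15 arrays, which may be technical. Each gene was represented by 1 probe set, and 13523 of 17097 genes lay high enough above the dim end of the arrays to be tested. Values are log2 expression after RMA, the authors' array normalization, and changes are log2 differences, day 14 minus day 7, with their standard error (SE).

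Folic acid crystals damage the tubule epithelium, and the surviving epithelium then repairs over days to weeks. Interstitial fibroblasts respond by turning into myofibroblasts, which carry smooth muscle actin and lay down fibrillar collagen, and macrophages enter the interstitium to clear debris. In the resolving phase matrix genes are turned down, epithelium regains its transporters, and macrophages change their phenotype. PDGFRa is the receptor by which the fibroblasts were sorted.

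The sorted cells were checked against marker genes before the comparison. Pdgfra stood at 5.00, 4.24 and 6.60 in the day 14 arrays, against 4.96, 4.89 and 6.65 in the day 7 arrays, and the array medians over all probe sets ran from 4.93 to 5.06. Its level was thus above the array medians in array 3 of each day, below them in day 14 array 2 and near them in the other 3 arrays. Other stromal genes were uneven. Col1a1 was bright, between 10.62 and 11.64 at day 14, against 11.70 to 12.02 at day 7. Col1a2 was dim, between 3.73 and 4.47 at day 14, against 3.81 to 4.90 at day 7. Transcripts of tubule cells were bright as well. The mean of 12 proximal tubule markers was 8.93, 8.89 and 6.70 in day 14 arrays 1, 2 and 3, against 8.07, 6.71 and 5.35 in day 7 arrays 1, 2 and 3. The mean of 21 macrophage and dendritic cell markers was 7.87, 6.60 and 8.01 at day 14, against 6.90, 7.69 and 8.17 at day 7. Neither mean separated the days, and both varied widely within each day.

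Between day 14 and day 7, 7 genes passed limma's moderated test at an adjusted p of 0.05, which is 0.0518% of the genes tested. Of these 6 fell (0.0444%) and 1 rose (0.00739%). The genes that fell were Clca3a1, Itih5, Gem, Nkd2, Fam126a and Bicc1, by between 2.22-fold and 9.81-fold, and the gene that rose was Epb41l4b, by 2.04-fold. Each of the 7 had all 3 day 14 arrays on one side of all 3 day 7 arrays, where 9.79% of all genes did. Picking genes by small p favours such genes, so this is no separate support.

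Itih5, a secreted protein of the inter-alpha-trypsin inhibitor heavy chain family, whose members bind hyaluronan, had the smallest p. It stood at 4.68, 4.62 and 4.81 in the day 14 arrays, against 7.77, 6.77 and 7.09 in the day 7 arrays (log2 -2.51, SE 0.27, adjusted p = 0.00735 by limma). The day 14 arrays lay close together and at the level of uninjured kidney, 4.81 ± 0.38 (SD, n = 3). These day 14 values were low on the arrays, below every array median, where differences are compressed. Nkd2 encodes a cytoplasmic protein that restrains Wnt signalling at Dishevelled. Its values were 7.71, 7.37 and 8.04 at day 14, against 9.33, 10.26 and 9.37 at day 7 (log2 -1.95, SE 0.26, adjusted p = 0.0268). The day 14 arrays remained above the uninjured mean of 5.81 ± 0.20 (SD, n = 3).

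Clca3a1 belongs to the CLCA family of chloride channel regulators and had the lowest log2 change of all genes tested. It measured 5.66, 6.57 and 6.26 at day 14, against 8.48, 9.01 and 10.88 at day 7 (log2 -3.29, SE 0.47, adjusted p = 0.0343). Day 7 array 3 was the highest of the 6. Over fits that each left out 1 of the 6 arrays, the log2 change ran from -3.78 to -2.58. Its close relative Clca3a2, named here after its value was seen, had a log2 change of -3.09, and whether the probe sets tell these genes apart was not tested. Gem, a small GTPase that dampens calcium channels, was at 4.14, 4.31 and 4.61 at day 14, against 5.91, 6.42 and 7.71 at day 7 (log2 -2.33, SE 0.36, adjusted p = 0.0450). The day 14 values were low on the arrays, below every array median.

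Fam126a encodes hyccin, a part of the complex that makes phosphatidylinositol 4-phosphate at the plasma membrane. It was at 5.45, 5.09 and 5.72 at day 14, against 6.68, 7.58 and 6.91 at day 7 (log2 -1.64, SE 0.25, adjusted p = 0.0450). Bicc1, an RNA-binding protein whose loss gives polycystic kidneys in mice, was bright on all 6 arrays, with 9.01, 8.81 and 9.00 at day 14 and 9.92, 10.17 and 10.17 at day 7. Its change was small and the arrays of each day were tight (log2 -1.15, SE 0.16, adjusted p = 0.0343). Epb41l4b, a FERM-domain protein of the band 4.1 family, had 6.50, 6.19 and 6.23 at day 14, against 5.35, 5.24 and 5.25 at day 7 (log2 1.03, SE 0.13, adjusted p = 0.0268). Its day 14 mean of 6.31 ± 0.17 was also above the means of day 3 (5.29 ± 0.19) and uninjured kidney (5.71 ± 0.05; SD, n = 3 each). The other probe sets of Itih5, Nkd2 and Clca3a1 had changes of the same sign, with log2 -1.56 for Itih5, -1.35 and -0.24 for Nkd2 and -1.12 for Clca3a1. The remaining 4 genes had 1 probe set each. When a gene's probe sets were averaged, Nkd2 (log2 -1.18, adjusted p = 0.0694) and Clca3a1 (log2 -2.21, adjusted p = 0.339) did not pass.

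**Figure D1:**
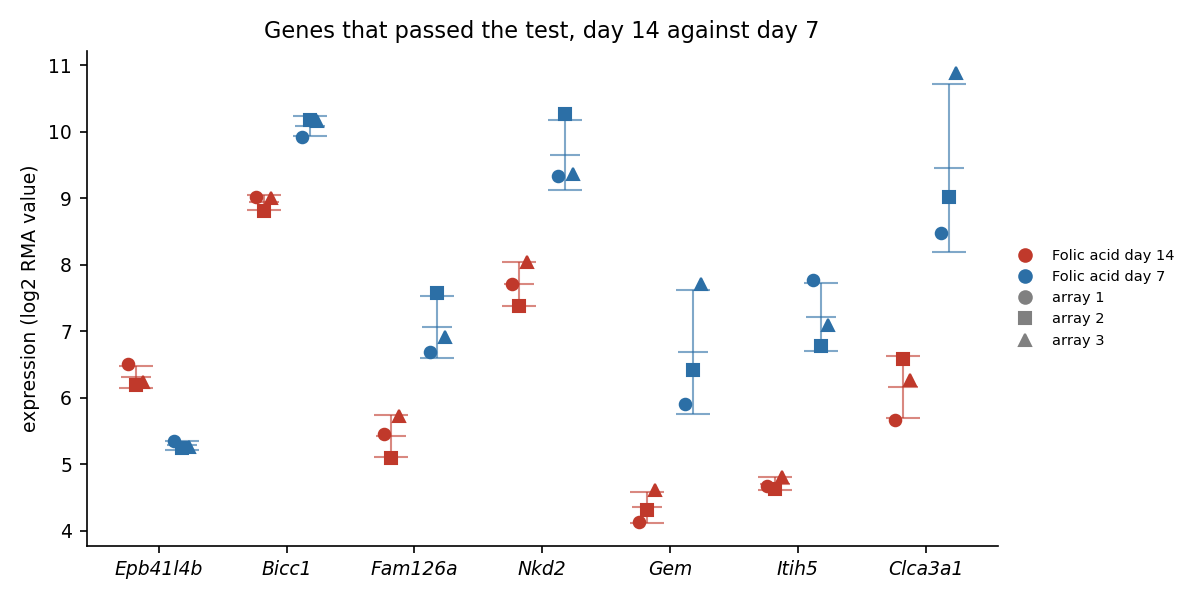
Expression of the 7 genes that passed the test, on the log2 RMA scale, with red marks for the 3 day 14 arrays, blue marks for the 3 day 7 arrays, and bars for mean ± SD. The red and blue marks do not overlap for any of the 7 genes, which were picked by small p from the same arrays. Clca3a1 and Gem spread most at day 7.

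These calls rested on the spread of all 15 arrays. The groups not compared were tighter, with a median SD of a gene from 0.186 to 0.242. It was 0.298 at day 14 and 0.291 at day 7. Fitted on the 6 arrays alone, limma called 0 genes, with 756 at an unadjusted p under 0.05, and with array weights it called 0, with 880. With a covariate for the proximal tubule mean it also called 0, with 1004 at an unadjusted p under 0.05, and Itih5 stood at log2 -2.57 (adjusted p = 0.0717). Leaving out arrays moved the count to 2 without day 7 array 2, to 3 without day 14 array 1, to 39 without day 7 array 1 and to 50 without day 14 array 3. Itih5 kept its call whichever of the 6 arrays was left out, with log2 changes from -2.73 to -2.23. Without day 7 array 2 or day 14 array 1 each of the other 6 genes missed the threshold, and so did Bicc1, Fam126a and Epb41l4b without day 7 array 3. Bicc1, Clca3a1, Fam126a, Gem and Nkd2 also missed it without day 14 array 2. Their adjusted p-values in these fits ran from 0.0521 for Clca3a1 to 0.120 for Fam126a and Gem, and their log2 changes kept their sign in all 6 fits.

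Many genes differed in mean without passing. The log2 change was at least 1 in size for 594 genes (4.39%), and in 344 of them the arrays of the days overlapped. Arrays did not overlap for 1324 genes (9.79%), 651 higher at day 14 (4.81%) and 673 lower (4.98%). An unadjusted p under 0.05 was reached by 1194 genes (8.83%), 588 higher (4.35%) and 606 lower (4.48%), and 20 genes had an adjusted p under 0.1, 10 in each direction. A p that misses the threshold does not show that the levels were equal, since the median SE of a change was 0.27.

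The genes next after Epb41l4b on the higher side did not pass. Among them were the collecting duct water channels Aqp2, at 7.57, 7.68 and 7.19 at day 14, against 6.53, 6.09 and 5.46 at day 7 (adjusted p = 0.0589), and Aqp3, at 6.68, 7.27 and 6.71, against 5.55, 5.47 and 5.18 (adjusted p = 0.0867). Mal2, which carries proteins to the apical membrane of polarised cells, had a log2 change of 1.74 (SE 0.31). Lad1, a basement membrane anchor of epithelium, had 1.65 (SE 0.32), and Tmem213 had 1.22 (SE 0.24). Fahd1, a mitochondrial hydrolase, was at 6.80, 6.48 and 7.19 at day 14, against 5.31, 4.47 and 3.94 at day 7 (adjusted p = 0.0589). The anticoagulant zymogen Proc (log2 1.56), the chromatin ATPase Ruvbl1 (log2 1.01) and the Ras-association protein Rassf4 (log2 1.55) had adjusted p-values from 0.0867 to 0.110.

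Mmp12, the macrophage elastase, was at 6.64, 5.31 and 7.32 at day 14, against 4.06, 4.30 and 4.46 at day 7 (log2 2.15, SE 0.36, adjusted p = 0.0723). Clec7a, a receptor for fungal glucan on myeloid cells, was at 6.76, 5.62 and 7.11 at day 14, against 4.43, 4.89 and 4.90 at day 7 (adjusted p = 0.0866). For both genes day 14 array 2 was the lowest of its day, as it was for the macrophage marker mean. That the days did not overlap is no separate result, because genes next after the calls were named only if they did not overlap. On the lower side F13a1, a transglutaminase made by macrophages, was at 4.37, 3.94 and 4.45 at day 14, against 5.44, 7.78 and 8.94 at day 7 (log2 -3.13, SE 0.61, adjusted p = 0.110). Its day 7 arrays followed the order of their macrophage marker means. Adding the mean of the macrophage markers to the limma fit gave 24 calls in place of 7. All 3 genes passed in that fit, with Mmp12 at 2.23 (adjusted p = 0.00448), Clec7a at 1.83 (adjusted p = 0.00429) and F13a1 at -3.02 (adjusted p = 0.0312). The fits with array weights, with the 6 arrays alone and with the proximal tubule covariate called 0 genes. Whether macrophage content accounts for these changes was not tested.

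The other genes named on the lower side did not pass either. Emp1, a membrane protein of the PMP22 family, was at 8.78, 7.93 and 8.68 at day 14, against 9.55, 9.89 and 10.38 at day 7 (adjusted p = 0.0860). Slc7a2, a carrier of arginine and other cationic amino acids, was at 7.96, 7.81 and 8.28 at day 14, against 9.13, 9.26 and 10.13 at day 7 (adjusted p = 0.0866), and its 3 other probe sets had the same sign. The heparan sulfate sulfotransferase Hs6st2 had a log2 change of -1.57 (SE 0.28) and the growth inhibitor Rerg one of -1.84 (SE 0.34). Dlc1 had -1.84 (SE 0.35). Hs6st2 and Dlc1 are less certain, because 1 of 2 other probe sets of Hs6st2 and the only other one of Dlc1 had the opposite sign.

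Changes of matrix genes were mostly negative, and none passed. All 16 fibrillar and associated collagens had a negative change, with a median of -0.88 beside 0.01 for all genes tested. Without day 7 array 3, 14 of the 16 were negative. Col1a2 and Col11a1 lay below every array median in all 6 arrays, with changes of -0.18 and -0.07, and Col12a1 had -0.04. In 8 of the 16 every day 14 array lay below every day 7 array, where 4.98% of all genes did so. An unadjusted p under 0.05 was reached by 10 (4.48% of all genes). Col16a1 had the smallest p, at 6.55, 6.41 and 7.23 at day 14, against 7.66, 8.10 and 7.71 at day 7 (log2 -1.09, SE 0.22, adjusted p = 0.110). Col14a1 had a log2 change of -1.84 and the collagen VI chains Col6a1 and Col6a2 had -0.91 and -0.99. Col1a1 had -0.66 (SE 0.22, adjusted p = 0.393) and Col3a1, whose arrays overlapped, -0.50 (SE 0.42, adjusted p = 0.782). The list mean was 7.52 to 8.47 in the day 14 arrays, against 8.55 to 9.09 in the day 7 arrays and 5.35 to 5.87 in uninjured kidney. Day 14 array 2 was the lowest of the 6 and day 14 array 3 the highest of its day. The collagen median was -0.45 once the proximal tubule mean entered the fit, and over the fits that left out an array it ran from -1.10 to -0.56, with -0.56 without day 14 array 2. In these bulk samples, fewer collagen-making cells and less collagen RNA per cell cannot be told apart.

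Of 22 matrix glycoproteins and proteoglycans 21 had a negative change, with a median of -0.74, and 8 did not overlap on the lower side (4.98% of all genes). Without day 14 array 2 the median was -0.40. The elastic fibre protein Fbln5 was at 8.36, 7.05 and 6.73 at day 14, against 8.67, 8.90 and 9.70 at day 7 (log2 -1.71, SE 0.48, adjusted p = 0.304), and its other probe set had the opposite sign. Mfap2 and Emilin1, of the same fibres, had -1.24 and -1.08, and the small proteoglycan Ogn had -1.29. Fn1 (log2 -0.57), Postn (log2 -0.40) and Tnc (log2 -0.97) overlapped between the days. Among 14 collagen processing genes 12 were negative, with a median of -0.51 and 3 that did not overlap on the lower side (4.98% of all genes). Without day 14 array 2 the median was -0.26, with 9 of 14 negative. They were led by the crosslinking oxidase Lox, at 6.04, 4.71 and 7.56 at day 14, against 7.62, 9.05 and 9.18 at day 7 (log2 -2.52, SE 0.59, adjusted p = 0.177). Its relatives Loxl1, Loxl2 and Loxl3 had -1.50, -1.32 and -0.78. Of 18 matrix proteases and inhibitors 13 were negative and 5 positive (median -0.56), with Mmp19 at -1.23, Mmp9 at -0.51, Timp1 at -0.95 and, on the other side, Mmp12. Their median was -0.32 without day 14 array 2.

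Wnt pathway genes held 1 of the 7 calls, Nkd2, among 16 tested, where 0.0518% of all genes were called. A single call, in a list chosen with earlier results of these data known, is no result about the list. In all 12 were negative and 4 positive, with a median of -0.75, and 5 did not overlap on the lower side (4.98% of all genes). The median was -0.46 without day 14 array 2 and -1.17 without day 14 array 3. Ccn4, a secreted matricellular protein and Wnt target, was at 5.93, 6.23 and 7.47 at day 14, against 8.41, 7.97 and 9.00 at day 7 (log2 -1.91, SE 0.39, adjusted p = 0.112). The secreted antagonist Frzb was at 6.58, 5.17 and 8.09, against 8.36, 8.88 and 9.03 (log2 -2.14, SE 0.55, adjusted p = 0.226), and the receptor Fzd1 had -1.01 (SE 0.29). With the proximal tubule covariate the list median was -0.13 and Nkd2 was at -1.86 (adjusted p = 0.159). Among 15 TGF-beta pathway genes 10 were negative (median -0.42), with the ligand Tgfb3 at -0.89, the receptor Tgfbr2 at -0.60, Skil at -0.60 and the decoy receptor Bambi at 0.75. That median was 0.07 with the covariate, and -0.24 without day 14 array 2. Retinoid genes had 7 of 9 negative (median -0.16), among them the retinoic acid synthase Aldh1a2 (log2 -0.73), Rdh10 (log2 -0.74) and Crabp2 (log2 -0.30), and Dhrs3 was at 0.56.

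Of 17 markers of kidney fibroblasts 13 were negative, with a median of -0.62, 2 that did not overlap on the lower side (4.98% of all genes), 4 at an unadjusted p under 0.05 (4.48% of all genes) and 0 that passed. The median was -0.29 without day 14 array 2 and -0.30 without day 7 array 3. The mesenchymal cadherin Cdh11 was at 9.48, 8.97 and 10.35 at day 14, against 10.34, 10.69 and 10.79 at day 7 (SE of the log2 change 0.28, adjusted p = 0.303). Lgi2 was at 8.54, 7.68 and 9.77, against 9.59, 10.38 and 10.41 (log2 -1.46, SE 0.44), and Colec12, a scavenger receptor, and the stromal transcription factor Tcf21 had -0.98 and -1.05. The median was -0.20 with the proximal tubule covariate. Of 16 contractile genes 11 were negative and 5 positive (median -0.27), with medians from -0.49 to -0.13 over the fits that left out an array. With the proximal tubule covariate the contractile median was -0.03, with 8 positive and 8 negative. Non-muscle myosin Myh9 was at 7.27, 7.81 and 8.29 at day 14, against 8.58, 9.15 and 8.94 at day 7 (log2 -1.09, SE 0.26), Actn1 and Cnn2 had -0.85 and -0.83, and Acta2 had -0.34 (SE 0.23, adjusted p = 0.717). Smooth muscle myosin Myh11 went the other way, at 6.40, 6.79 and 8.18 at day 14, against 5.83, 5.24 and 5.52 at day 7 (log2 1.59, SE 0.55, adjusted p = 0.403). Of 11 pericyte and smooth muscle markers 6 were positive and 5 negative (median 0.01), with Rgs5 at 1.16, Itga8 at 0.69 and Kcnj8 at -0.45.

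**Figure D2:**
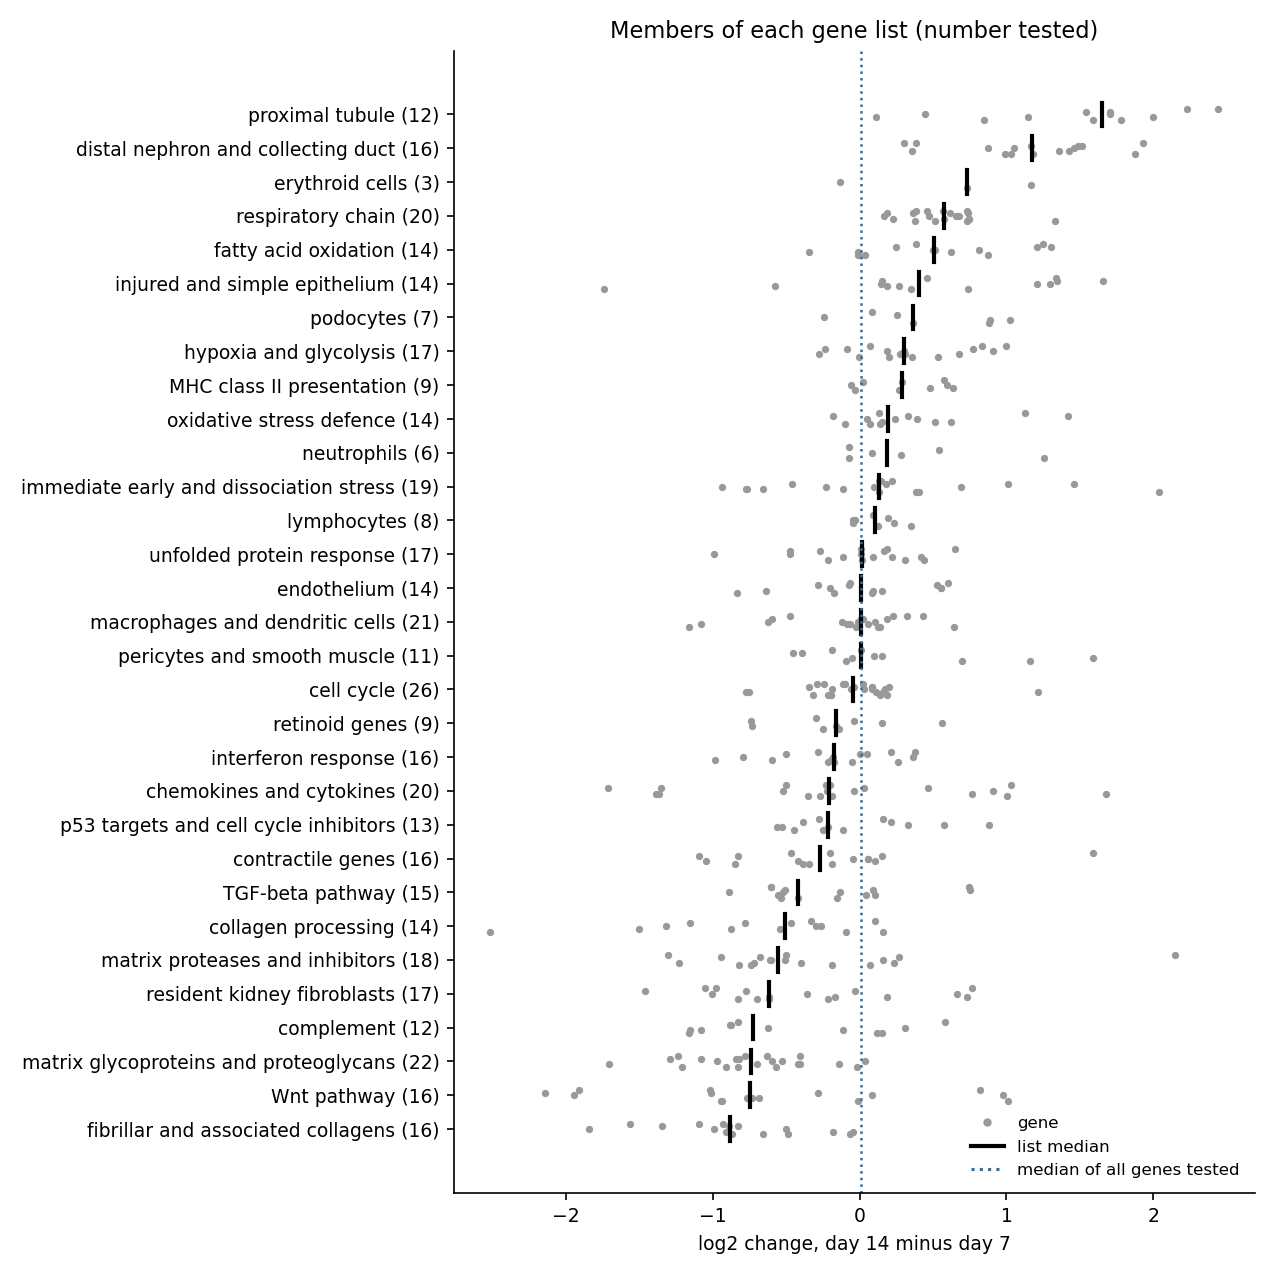
Log2 change, day 14 minus day 7, of each tested gene (grey points) in the 31 gene lists, ordered by list median (black bars), with the median of all genes tested as a dotted line. All tested members of the collagen list lie left of 0, and all of the proximal tubule, distal nephron and respiratory chain lists lie right of it.

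All 16 distal nephron and collecting duct markers had a positive change, with a median of 1.17. In 7 of the 16 every day 14 array was above every day 7 array, where 4.81% of all genes were. An unadjusted p under 0.05 was reached by 9 (4.35% of all genes), and 0 passed. Beside the water channels, the sodium channel subunit Scnn1g was at 7.06, 7.39 and 6.62 at day 14, against 6.54, 5.46 and 5.00 at day 7 (log2 1.36, SE 0.36, adjusted p = 0.237). The potassium channel Kcnj1 was at 7.46, 8.41 and 7.98, against 7.31, 6.55 and 5.44 (log2 1.51, SE 0.43, adjusted p = 0.311). The list mean was 7.51 to 8.34 at day 14 and 6.06 to 7.49 at day 7, next to 6.05 to 6.35 at day 3 and 8.05 to 8.58 in uninjured kidney. With the proximal tubule covariate the median was 0.58, and without day 14 array 1, 15 of 16 were positive.

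All 12 proximal tubule markers were positive too, with a median of 1.65, 2 of them without overlap (4.81% of all genes). The median was 0.85 without day 7 array 3, with 10 of 12 positive, and 2.49 without day 14 array 3. Aqp1, a water channel that endothelium also expresses, was at 8.11, 7.66 and 6.81 at day 14, against 5.91, 4.91 and 4.44 at day 7 (log2 2.44, SE 0.62, adjusted p = 0.225). Cubn, the endocytic receptor cubilin, was at 8.89, 8.84 and 7.17, against 7.93, 7.19 and 5.01 (log2 1.59, SE 0.67). The organic anion transporters Slc22a6 and Slc22a8 had 1.54 (SE 0.72) and 2.23 (SE 1.06). Of 14 injured and simple epithelium genes 12 were positive (median 0.40), with the simple keratins Krt8 at 1.21 and Krt18 at 1.66, Cdh1 at 1.34 and Cdh16 at 1.34. Their median was 0.89 without day 14 array 2. The 2 negative ones were Vcam1 (log2 -0.57) and Havcr1, the tubule injury molecule KIM-1, both named after their values were seen. Havcr1 was at 8.02, 7.26 and 7.16 at day 14, against 11.04, 9.50 and 7.12 at day 7 (log2 -1.74, adjusted p = 0.595), and only day 7 arrays 1 and 2 were above the day 14 range. Podocyte markers were positive in 6 of 7 cases (median 0.36), with Podxl at 1.02, Plce1 at 0.89 and Nphs1 at 0.36.

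All 20 respiratory chain subunits tested were positive, with a median of 0.57, and 0 passed. An unadjusted p under 0.05 was reached by 5 (4.35% of all genes), and 1 did not overlap (4.81% of all genes). The list means overlapped, at 9.42 to 10.29 in day 14 arrays and 8.57 to 9.88 in day 7 arrays. Without day 7 array 3 the median was 0.19 and without day 14 array 1 it was 0.37, with 16 of 20 positive in each case. The complex I subunit Ndufv1 was at 10.35, 10.51 and 9.52 at day 14, against 9.77, 8.60 and 8.02 at day 7 (log2 1.33, SE 0.39, adjusted p = 0.315). The cytochrome oxidase subunits Cox7a2 and Cox5b had 0.75 and 0.57, and Ndufb5 had 0.66. The list median was 0.01 with the proximal tubule covariate. Fatty acid oxidation genes were positive in 11 of 14 cases (median 0.51), with the regulator Ppara at 1.30, Acaa2 at 1.25, Acadvl at 0.50 and Decr1 at 0.62, and the median was -0.18 with the covariate. Without day 7 array 3 it was 0.21, with 9 of 14 positive. Hypoxia and glycolysis genes were positive in 13 of 17 cases (median 0.30), led by the glycolytic enzyme Aldoa at 10.82, 10.79 and 10.47 at day 14, against 10.09, 9.90 and 9.58 at day 7 (log2 0.84, SE 0.15, adjusted p = 0.0866). Bnip3, Pgk1 and Vegfa had 0.91, 0.68 and 0.53, and the median of this list was 0.11 with the covariate. Oxidative stress defence genes were positive in 12 of 14 cases (median 0.20), with Gsta4 at 1.42, Sod2 at 1.12, Gpx1 at 0.51 and Gpx3 at 0.39, and their median was -0.09 with the covariate and ran from 0.14 to 0.44 over the fits that left out an array.

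**Figure D3:**
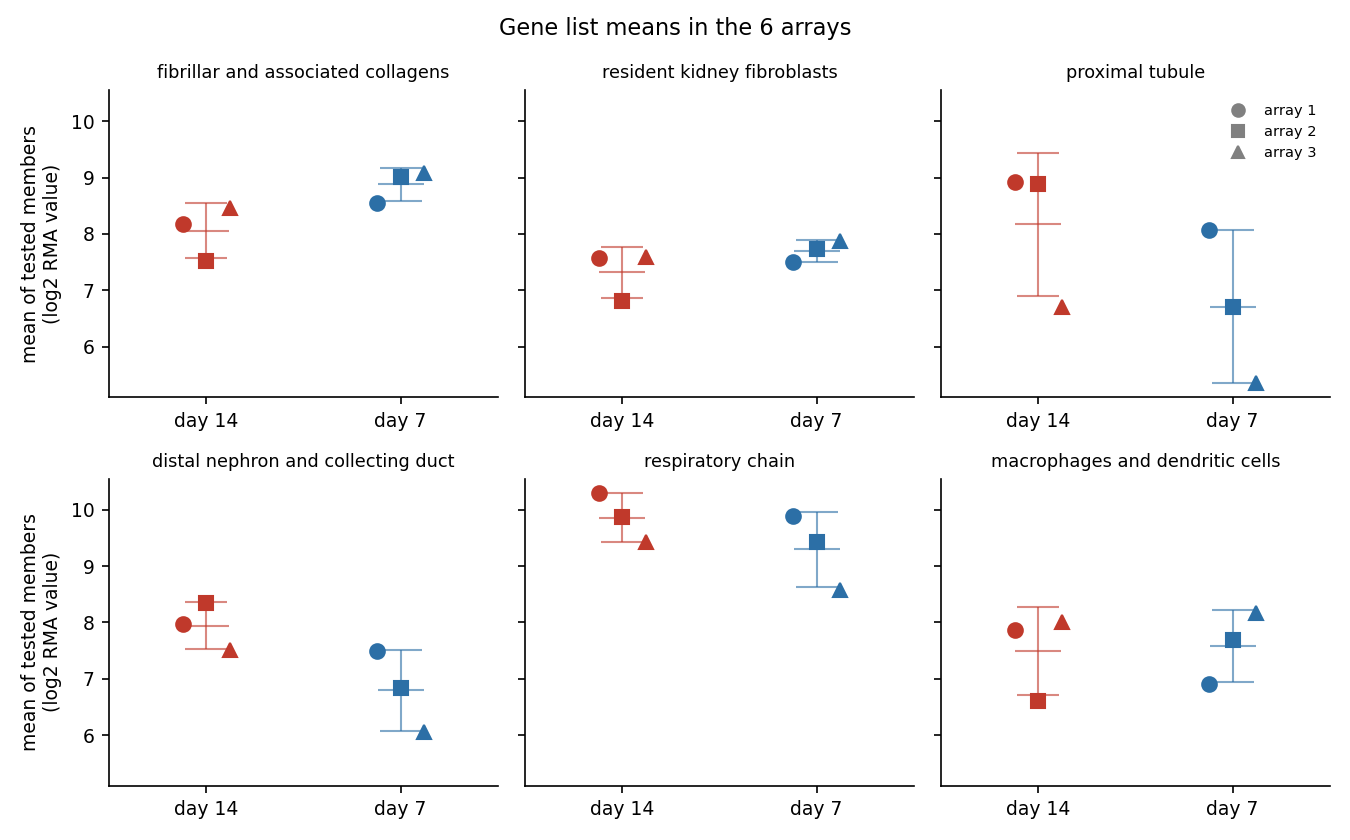
Mean log2 value of the tested members of 6 gene lists in each array, with red marks for day 14, blue marks for day 7, and bars for mean ± SD over 3 arrays. Array 3 of each day has the lowest proximal tubule and respiratory chain means of its day. The days are narrowly apart for collagens, with nearest arrays at 8.47 (day 14) and 8.55 (day 7). They are narrowly apart for distal nephron as well (7.51 and 7.49), and they overlap in the other 4 panels.

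Macrophage and dendritic cell markers had 11 positive and 10 negative changes of 21 (median 0.01) and 0 without overlap. This split depended on the arrays kept, with 16 positive and 5 negative without day 14 array 2 (median 0.41) and 5 positive and 16 negative without day 7 array 1 (median -0.30). The myeloid lysozyme Lyz2 was at 10.55, 10.15 and 10.87 at day 14, against 10.11, 10.41 and 10.66 at day 7. The complement subunits C1qa and C1qb, which macrophages make, had -1.16 and -1.08, and the dendritic cell integrin Itgax and the chemokine receptor Cx3cr1 had 0.65 and 0.43. For C1qb the day 14 values were 9.45, 5.91 and 8.53, against 8.22, 9.32 and 9.59 at day 7, and array 2 set the low day 14 mean. MHC class II presentation genes were positive in 7 of 9 cases (median 0.29). H2-Aa was at 10.87, 11.00 and 11.20 at day 14, against 10.72, 10.80 and 10.74 at day 7 (log2 0.27, SE 0.17, adjusted p = 0.699). H2-Eb1, H2-Ab1 and Cd74 had 0.60, 0.63 and 0.48, and the list median ran from 0.18 to 0.52 over the fits that left out an array.

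Of 20 chemokines and cytokines 13 were negative (median -0.21), with a median of -0.03 without day 14 array 2. The membrane-bound chemokine Cx3cl1 was at 8.40, 7.22 and 8.44 at day 14, against 9.15, 10.03 and 10.03 at day 7 (log2 -1.72, SE 0.35, adjusted p = 0.113), and the alarmin Il33 had -1.37 (SE 0.43). Ccl5 (log2 0.76) and Il1b (log2 1.03) were positive and Ccl2 had -0.35 (SE 0.61). Complement genes were negative in 8 of 12 cases (median -0.73), with Serping1 at -0.88 and C1s1 at -0.83, and their median was 0.04 without day 14 array 2. Interferon response genes were negative in 10 of 16 cases (median -0.18), with Ifih1 at -0.99, Oasl2 at -0.80, Gbp3 at -0.50 and Psmb9 at 0.26. Lymphocyte markers were dim, with list means of 5.05 to 5.27 at day 14 and 4.96 to 5.16 at day 7, and 5 of 8 were positive (median 0.11), with Cd79a at 0.35, Cd3e at 0.23, Cd8a at 0.20 and Cd3d at 0.12. Neutrophil markers were positive in 4 of 6 cases (median 0.18). S100a8 was at 5.82, 5.17 and 7.51 at day 14, against 3.95, 5.75 and 5.05 at day 7, and S100a9, Csf3r and Ltf had 0.28, 0.54 and 0.08. Endothelial markers divided 7 and 7 (median 0.01), with Pecam1 at -0.84, Eng at -0.64, Vwf at 0.56 and Egfl7 at 0.53. Only 3 erythroid genes were tested (median 0.73), Slc4a1 at 1.17, Hba-a1 at 0.73 and Epb42 at -0.13, and Slc4a1 is also an intercalated cell gene of the distal nephron list.

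Immediate early and dissociation stress genes were positive in 12 of 19 cases (median 0.13), and their median was -0.11 without day 14 array 1. Fos was at 9.06, 9.03 and 9.71 at day 14, against 6.06, 7.46 and 8.14 at day 7 (log2 2.04, SE 0.57, adjusted p = 0.292), so the days did not overlap. Dusp1 had 0.69, while Klf4 and Myc had -0.94 and -0.77. Cell cycle genes were near 0, 12 positive and 14 negative of 26 (median -0.05). Mki67 was at 5.30, 6.83 and 8.13 at day 14, against 6.91, 6.80 and 7.51 at day 7 (log2 -0.32, SE 0.75, adjusted p = 0.953), and Nusap1, Top2a, Mcm3 and Cdca8 had -0.75, -0.77, -0.21 and 1.22. Genes of p53 and cell cycle inhibition were negative in 8 of 13 cases (median -0.22), with Cdkn1b at -0.53, Cdkn1c at 0.88, Gadd45b at 0.58 and Bbc3 at 0.22. The unfolded protein response list was positive in 11 of 17 cases (median 0.02), with Xbp1 at -0.99, Calr at -0.48, Dnajc3 at -0.47 and Sdf2l1 at 0.65. The medians of the interferon, p53, cell cycle, unfolded protein, endothelial, pericyte and neutrophil lists each took both signs over the fits that left out an array.

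The arrays of each day differed about as much from one another as from those of the other day. The median SD of a gene over 3 arrays was 0.298 at day 14 and 0.291 at day 7, against 0.242 at day 3, 0.231 in obstruction and 0.186 in uninjured kidney. An SD over 1 was found for 620 genes at day 14 (4.58%) and 694 at day 7 (5.13%), but for 77 in uninjured kidney (0.569%). Across genes, which are not independent replicates, arrays correlated at 0.889 to 0.901 within day 14 and at 0.863 to 0.902 within day 7. Between the days the correlations ran from 0.826, for day 14 array 1 with day 7 array 3, to 0.919, for day 14 array 3 with day 7 array 3. Day 14 array 3 and day 7 array 3 differed by more than 1 log2 unit in 1127 genes (8.33%), the fewest of all pairs among the 6 arrays, and day 14 arrays 1 and 2 did so in 2059 (15.2%). The nearest of all 14 other arrays was an array of the same day only for day 14 array 2. It was the other folic acid day for day 14 arrays 1 and 3 and for day 7 arrays 1 and 2, and an obstruction array for day 7 array 3 (0.925).

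By SD over the 3 arrays of a day, 13 genes made up the 8 widest of day 14 and of day 7. At day 14 Pck1, the gluconeogenic carboxykinase, was at 7.42, 11.12 and 5.30, against 6.86, 9.46 and 4.09 at day 7, so array 2 was highest and array 3 lowest on each day. Hsd3b4, a steroid dehydrogenase, was at 9.85, 9.64 and 5.90 at day 14, against 9.03, 4.72 and 4.49 at day 7, and Cyp2d26 was at 10.48, 10.00 and 6.50, against 10.14, 6.35 and 5.12. These 3 genes were among the 8 widest on both days. Day 14 array 3 was also lowest for the carboxylesterase Ces1d (5.02). Day 7 array 3 was the low array for the conjugating enzyme Ugt3a2 (4.65), the trypsin inhibitor Spink1 (5.41), the tight junction claudin Cldn2 (4.39) and the lipocalin Apom (5.35), where day 7 array 1 was at 10.60, 11.13, 9.98 and 10.15.

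Day 14 array 3 was high for Rexo5 (10.65, against 6.31 and 5.42 in day 14 arrays 1 and 2), the neutrophil chemokine Cxcl2 (8.40, against 5.29 and 3.36) and the deiodinase Dio2 (8.66, against 4.71 and 4.74). Day 14 array 2 was low for Dpysl3, a cytoskeletal protein, at 3.83, while arrays 1 and 3 had 7.63 and 7.93. The immunoglobulin segment Igkj1, a sign of plasma cells, was at 11.04, 9.46 and 11.06 at day 14 and at 3.85, 11.36 and 9.20 at day 7, so day 7 array 1 alone was low.

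**Figure D4:**
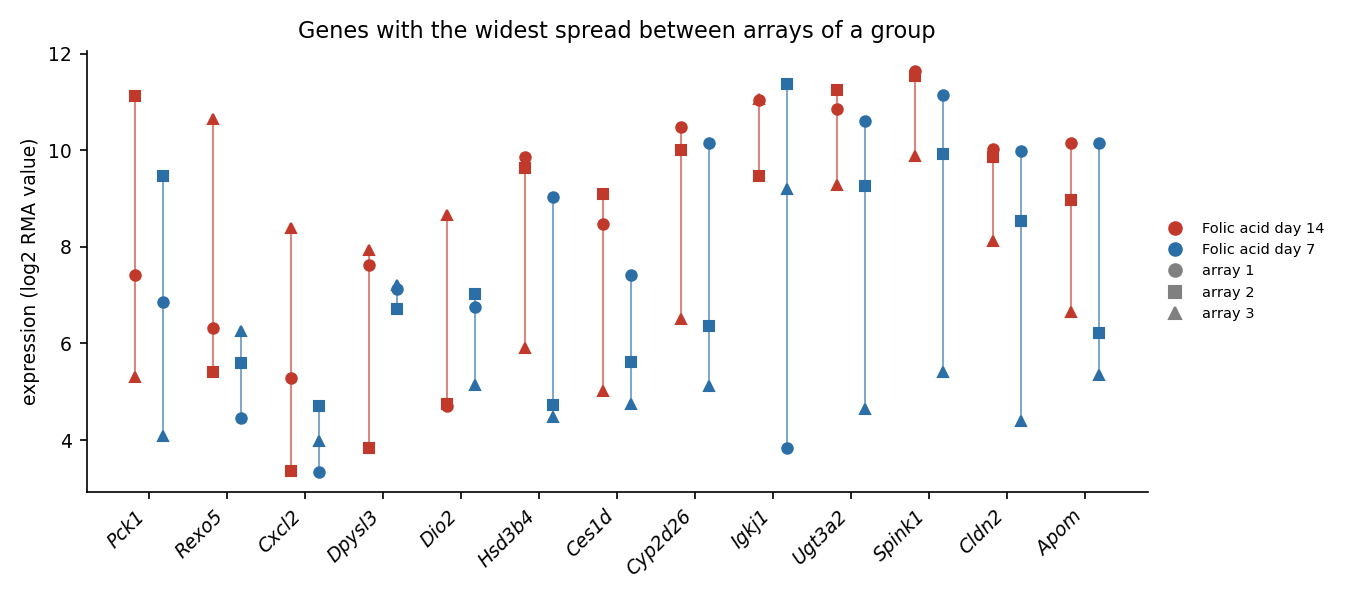
Log2 values of the 13 genes with the widest spread within day 14 (red) or day 7 (blue), with a symbol for each array and a line from the lowest to the highest. Hsd3b4, Cyp2d26, Ugt3a2, Spink1, Cldn2 and Apom all have array 3 lowest on each day.

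To ask whether the late step differed from the one before it, the change of day 14 minus day 7 was tested against the change of day 7 minus day 3. The earlier step held 94 calls (0.695%), 37 higher and 57 lower, against 7 in the late step. The sizes of change were closer than these counts. A log2 change of at least 1 in size was found for 721 genes in the earlier step and 594 in the late step. The median size of a change was 0.206 and 0.193. The steps share the day 7 arrays, so a high or low day 7 value moves both in opposite directions. The test of the difference between steps called 7 genes (0.0518%), 1 positive (0.00739%) and 6 negative (0.0444%). Nkd2 was the lowest, as its mean was 6.37 ± 0.11 at day 3, 9.65 ± 0.53 at day 7 and 7.71 ± 0.33 at day 14 (SD, n = 3 each; difference of steps log2 -5.22, SE 0.45, adjusted p = 0.000582). The axon guidance gene Sema3d had a similar course, 4.60 ± 0.79, 7.76 ± 0.54 and 6.34 ± 0.04 (difference log2 -4.59, SE 0.64, adjusted p = 0.0292), though its late change of -1.43 did not pass (adjusted p = 0.227). Cd74, the invariant chain of MHC class II, had 5.99 ± 0.16, 10.06 ± 0.21 and 10.54 ± 0.50, a step up that was followed by a late change of 0.48 (difference log2 -3.60, SE 0.53, adjusted p = 0.0348). Cyp4a12a, the one positive call, had 6.55 ± 0.40, 3.81 ± 0.24 and 4.18 ± 0.21 (difference log2 3.11, SE 0.44, adjusted p = 0.0292). The count of calls was 3 without day 3 array 2, day 7 array 2 or day 7 array 3, 15 without day 3 array 3, 21 without day 7 array 1, and 12 and 14 without day 14 arrays 2 and 3.

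**Figure D5:**
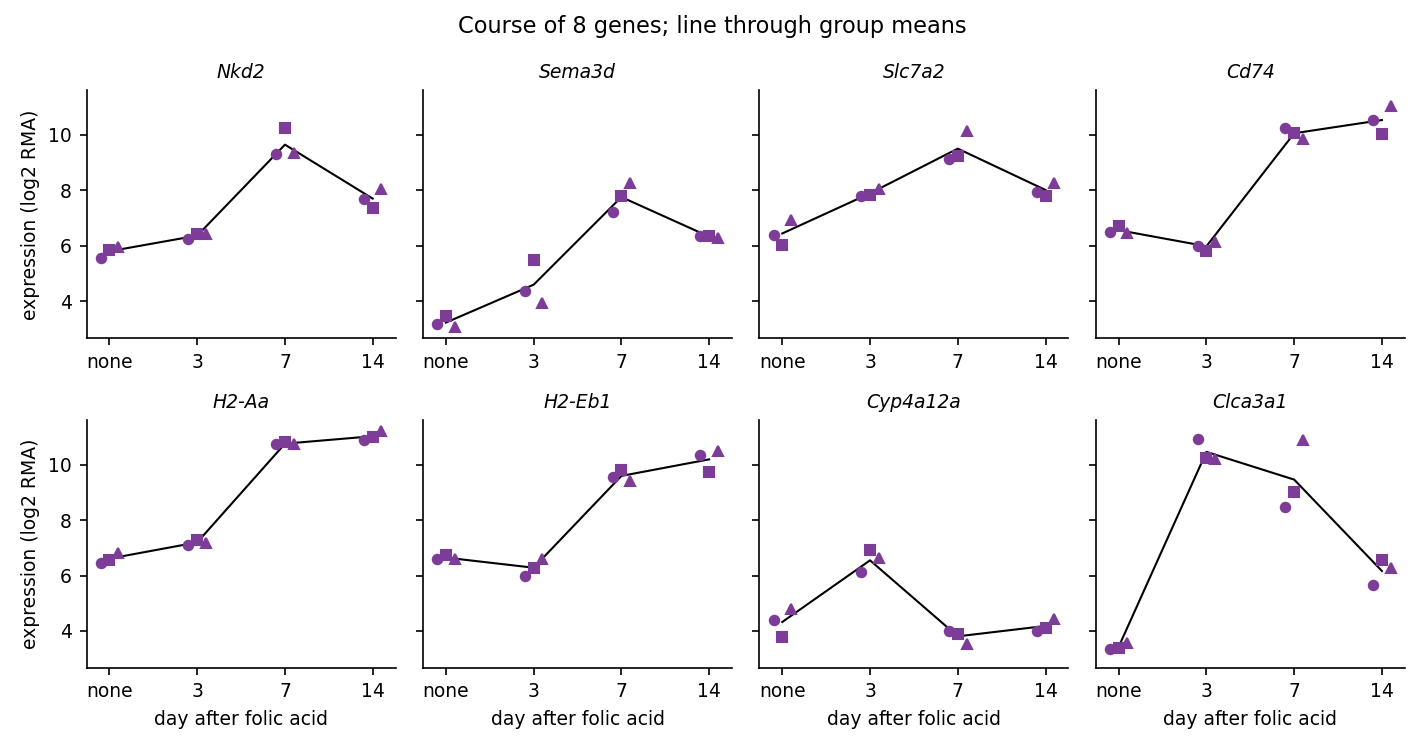
Log2 expression of 8 genes in uninjured kidney (none) and at days 3, 7 and 14 after folic acid, with a symbol for each of 3 arrays and a line through the group means. Nkd2, Sema3d and Slc7a2 peak at day 7, Cd74, H2-Aa and H2-Eb1 stay near their day 7 level at day 14, Cyp4a12a is highest at day 3, and Clca3a1 is high at days 3 and 7 and lower at day 14.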

How the data were processed

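RNA of sorted cells was amplified, labelled with biotin and hybridised to 15 arrays, per the labels' protocols. The deposited values are log2 expression of 45141 probe sets, which the authors computed by RMA according to what the submitters' processing notes list, beside affy and limma with no version. The values were used as deposited. Detection calls and background signals were not used here, and the number of arrays limits the precision.

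Probe sets were named through the platform annotation. Of them 28898 named 1 gene, 551 several and 15692 none, and Entrez identifiers matched 28689 in the mouse RefSeq gene table, which changed 0 symbols. The probe set with the highest mean over the 15 arrays stood for each of 17097 genes, 7180 of which had more than 1. Testing required a value over the 40th percentile of an array in at least 3 arrays, which kept 13523 and left out 3574. With limma 3.58.1 (R 4.3.3), group means were fitted over the 15 arrays (10 residual degrees of freedom). Tests were 2-sided and adjusted by Benjamini-Hochberg over all genes tested, with a threshold of 0.05. The fit was tested on simulated data. Plots were drawn with matplotlib 3.10.9.

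The comparison, the 31 gene lists (530 genes, of which 479 were measured) and the rule for named genes were chosen with earlier results of these data known. The rule took up to 12 calls in each direction, filled to 12 with the smallest p among genes without overlap and a log2 change of at least 1. It added 13 fixed stromal, myeloid and proliferation genes, up to 4 genes of smallest p in each list, the 8 of largest SD on each day and up to 3 calls in each direction for the difference of steps. Provisional symbols were left out. Lists were described by counts and medians, with no set test. The alternatives tried were other normalizations, limma settings, filters, probe set averages, covariates and arrays left out.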

Additional observations from a re-analysis of the deposited data

Results flagged for a closer look

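For 7 genes the late step (day 14 minus day 7) differed from the earlier step (day 7 minus day 3) in limma's test of the difference. The log2 difference was -5.22 for Nkd2, -4.59 for Sema3d, -3.60 for Cd74, -3.29 for H2-Aa, -3.10 for Slc7a2, -2.71 for H2-Eb1 and 3.11 for Cyp4a12a. Nkd2 and H2-Aa had the smallest adjusted p, 0.000582 each. The steps share the day 7 arrays.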

How the results depend on the processing

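The late step had 7 calls. It had 0 with array weights, 0 with only the arrays compared, 0 with the proximal tubule covariate, 4 with no filter on dim genes, 24 with the macrophage covariate, which held all 7, and 1 at a threshold of 0.01. Quantile normalization, median centring, limma's trend and robust options, averaged probe sets and the higher dim-gene filter (60th percentile) gave 7 to 10. Of the 10 calls with averaged probe sets 5 were among the 7, without Nkd2 and Clca3a1. With no filter on dim genes Clca3a1, Fam126a and Gem missed the threshold. Leaving out an array gave 2 to 50. The limma counts at an unadjusted p under 0.05 beside the counts of 0 were 880, 756 and 1004. For day 7 minus day 3, with 94 calls, only the arrays compared gave 16, the proximal tubule covariate 162, the macrophage covariate 30 and a threshold of 0.01 gave 20, and leaving out an array gave 31 to 180. For the difference of steps, with 7 calls, array weights gave 2, only the arrays compared 2, the filter at the 60th percentile 15, the mean of probe sets 17, the macrophage covariate 3 and a threshold of 0.01 gave 2, and leaving out an array gave 3 to 21. The causes of these shifts were not tested, and some of these fits also held fewer arrays.

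Signs turned only for genes that did not pass. With the proximal tubule covariate the log2 change was 0.75 for Pdgfra, 0.072 for Col3a1, 0.39 for Mki67, 0.025 for Oasl2, -0.11 for Gpx1, 0.077 for Kcnj8, -0.024 for Slc22a8, -0.034 for Ltf and -0.085 for Hba-a1, and with array weights it was 0.016 for Mki67. Slc22a8 is itself one of the proximal tubule markers averaged in that covariate, so its sign there carries no separate information. Over the fits that left out an array it ran from -0.88 to 0.36 for Pdgfra, -1.17 to 0.37 for Postn, -1.01 to 0.41 for Mki67, -0.99 to 0.31 for Ccl2, -0.048 to 0.32 for Lyz2, -0.71 to 0.045 for Kcnj8, -0.031 to 0.33 for Cd8a, -0.15 to 1.00 for Csf3r, -0.26 to 0.85 for S100a9 and -0.059 to 0.17 for Ltf. No paired analysis was possible because the labels number the arrays in 1 running series, so the days share no replicate number. Genes near the dim end of the arrays have compressed changes, and no detection call bounds them here.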
